A study of Drosophila melanogaster with 3 samples.

Results

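The Hedgehog pathway genes hh, ptc, smo and ci, and the neighbouring homeobox genes en and inv, were examined for binding of clockwork orange (cwo), a transcriptional repressor of the bHLH-Orange family, in Drosophila melanogaster embryos. These 6 genes were taken from a list of names and not from the measured values, out of 13945 protein-coding genes on the arms analysed. The data are chromatin immunoprecipitation followed by sequencing (ChIP-seq) of mixed-sex whole embryos, whose source name gives an age of 6 to 24 h. All embryos came from a transgenic strain, cwo-GFP, in which eGFP is fused to the C-terminus of cwo, and an anti-GFP antibody pulled the fusion down. The 3 samples are biological replicates of this strain, and no strain without the fusion and no other treatment was analysed here. The promoter of the fusion gene is not given here, and whole embryos mix all tissues, so binding in few cells and weak binding in many cannot be told apart.

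Each library is a list of enriched regions with a summit and a signal, the authors' own score, on a scale that no label states. Signal was used only to rank regions within a list, where rank 1 is the strongest. Each replicate list and the list from pooled reads held 30000 regions, background included, and the optimal list held the 7366 that passed the irreproducible discovery rate (IDR) procedure. A gene's window was its body and 5000 bp either side. Read depth is unknown from these files.

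Hedgehog is a secreted ligand that sets up segments and compartments of the embryo. Patched (ptc) is its receptor and holds the membrane protein Smoothened (smo) inactive until ligand binds, and active Smoothened lets the zinc-finger factor Cubitus interruptus (ci) switch on target genes, among them ptc itself. The homeodomain proteins Engrailed (en) and Invected (inv) mark posterior compartment cells, where they turn hh on and ci off.

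Strong cwo regions lay in the windows of hh, ptc and smo and were missing from those of ci, en and inv. The 3 genes with an optimal summit make up 3 of 6, beside 54.3% of all protein-coding genes. The windows held 11 optimal summits, 1 at hh, 6 at ptc and 4 at smo. For 2 of the 11, the nearest transcription start site (TSS) was that of the member, 1 at hh and 1 at ptc, and the other 9 were nearest to the TSS of another gene. Counted by nearest TSS within 5000 bp, cwo regions thus belonged to 2 of the 6 genes, beside 23.6% of all protein-coding genes. A promoter region, within 1000 bp of a TSS, was found at ptc only, 1 of 6 genes beside 25.3% of all. Among the strongest 7366 regions of replicates 1, 2 and 3, the window of hh held 1, 1 and 1 summits, that of ptc 6, 7 and 5, that of smo 4, 4 and 4, and that of inv 1, 0 and 0. The windows of ci and en held 0 in each replicate.

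**Figure D1:**
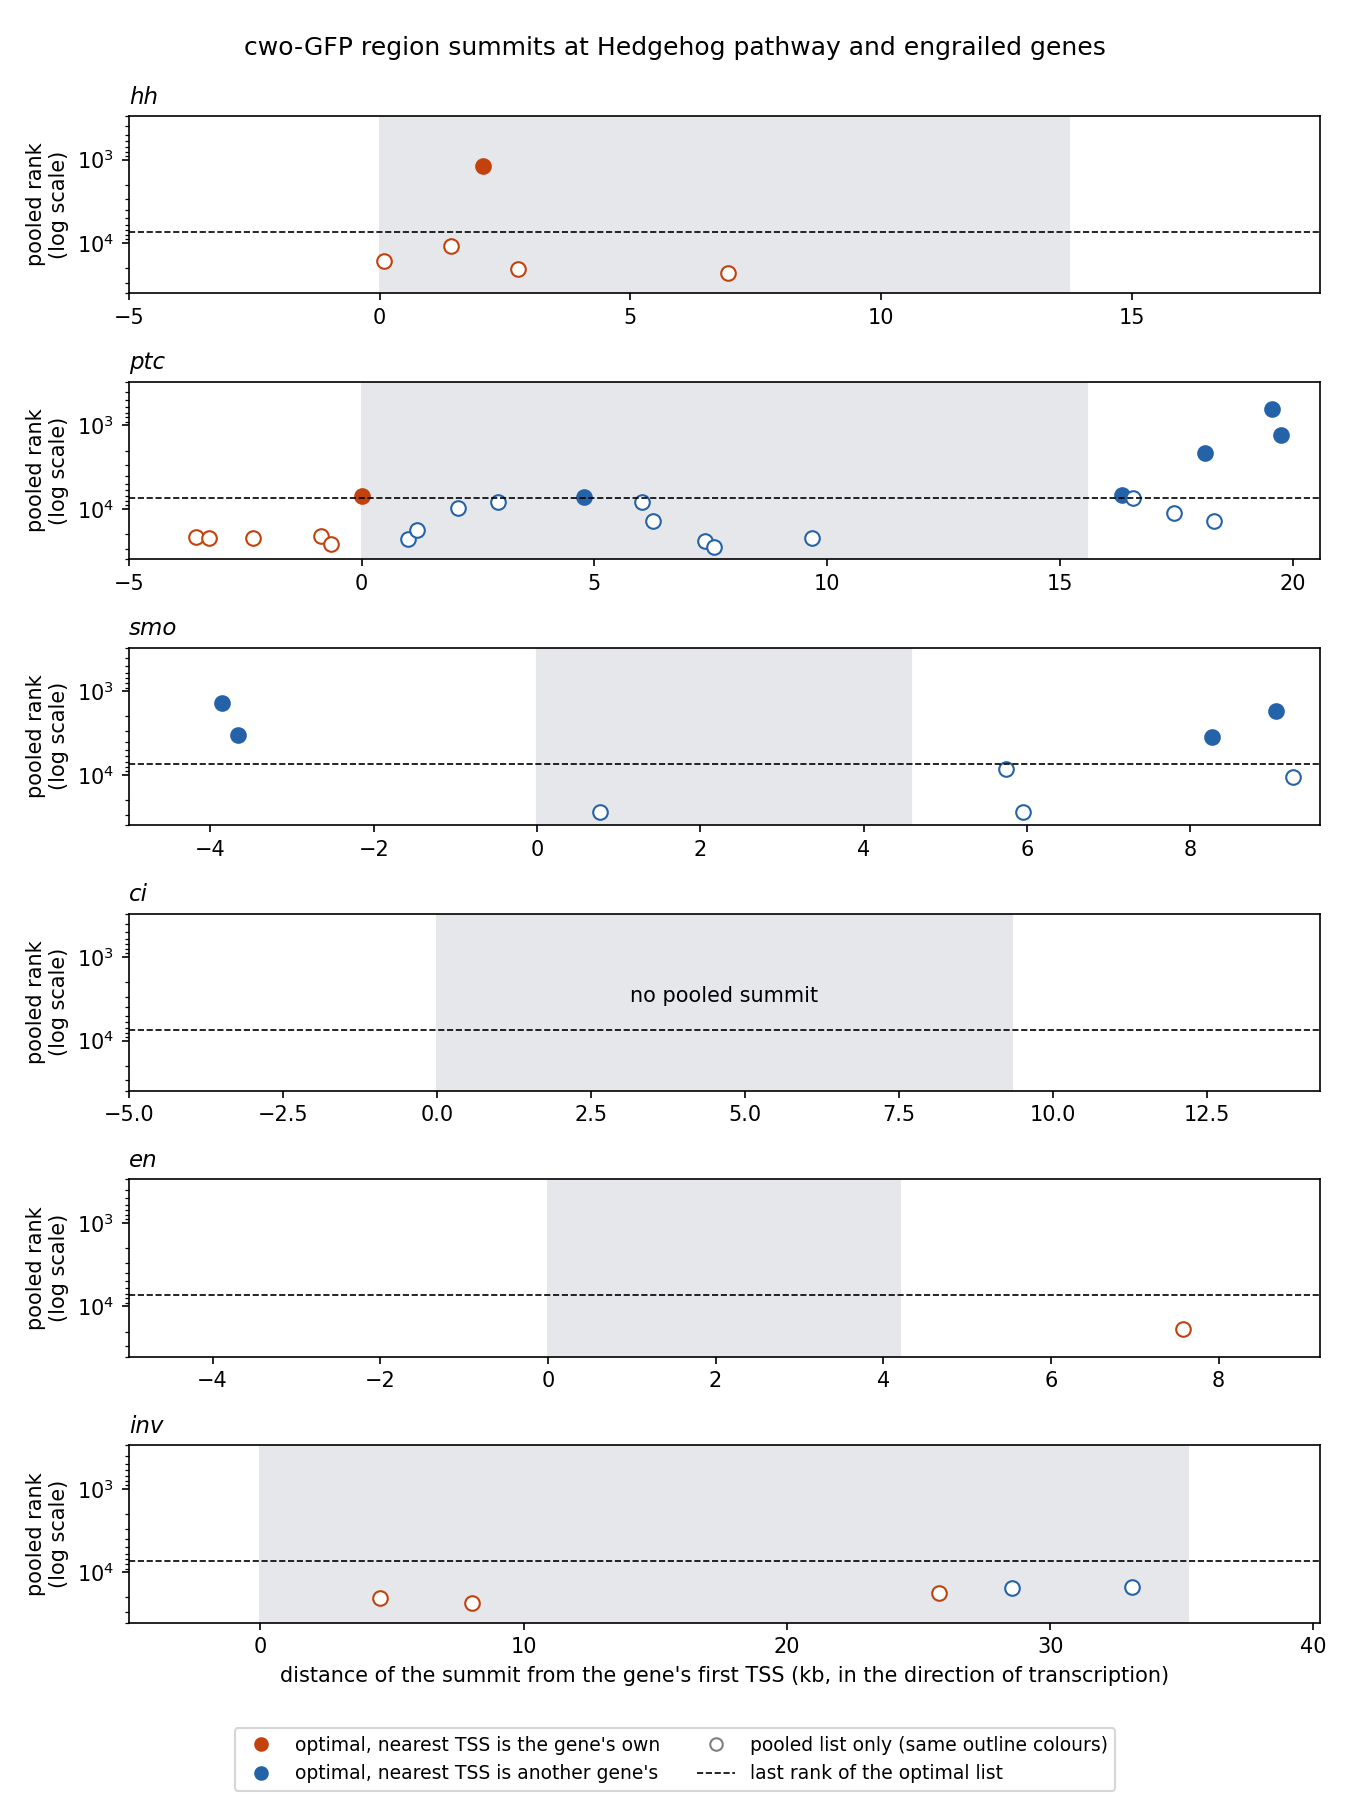
Summits in each gene's window by distance from the gene's first TSS (x axis, kb, in the direction of transcription; grey band, gene body) and by rank in the pooled list (y axis, log scale, strongest at the top). Filled points are in the optimal list, whose last rank is the dashed line, and open points are only in the pooled list, in orange where the nearest TSS is the gene's own and in blue where it is another gene's. By filled points, hh has 1 filled point inside its body, ptc 6 and smo 4, most of them outside the gene, and ci, en and inv have 0.

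The ligand gene hh (FBgn0004644, chr3R:23128169-23141906 on dm6, minus strand) had 1 optimal region, which lay inside the gene. Its summit at chr3R:23139839 lay in an intron of hh, 2067 bp downstream of the TSS, with a pooled signal of 910.2 and rank 1195. The region ranked 911, 1581 and 1068 in replicates 1, 2 and 3, a mean of 1187 ± 350 (SD, n = 3), and it was among the strongest 7366 of every replicate. Of all protein-coding genes, 17.1% had an optimal region at least this strong in their window. The replicate summits lay 41, 27 and 1 bp from the pooled summit. The promoter of hh itself had a weak region that did not reach the optimal list: its summit lay in the 5' UTR, 92 bp from the TSS, at rank 16433 of the pooled list, and it ranked 22541, 20750 and 18370 in the replicates. The remaining 3 pooled summits at hh were also intronic, 1417, 2762 and 6955 bp from the TSS, at ranks 10871, 20734 and 23131. Only the summit at 1417 bp had a region in all 3 replicates, and the other pair lacked one in replicate 2. The intronic signal at hh thus came from a single strong region among weak ones.

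The bases around the strong hh summit are shown because they lack CACGTG, the E-box of many bHLH proteins. The stretch is the plus strand of chr3R:23139739-23139939, 201 bases centred on the summit, from the RefSeq dm6 assembly. Capitals mark matches to TGATAA, which GATA factors bind, and to CACGCG, a class C site that Hes repressors bind, on either strand.

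hh intron: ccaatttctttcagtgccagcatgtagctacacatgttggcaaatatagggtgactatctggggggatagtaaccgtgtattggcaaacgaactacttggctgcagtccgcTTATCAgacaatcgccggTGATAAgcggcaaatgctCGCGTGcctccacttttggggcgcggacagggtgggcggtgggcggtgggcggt

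The 2 TGATAA matches lay on opposite strands, the nearer 13.5 bp from the summit by its centre, and the CACGCG match lay 49.5 bp from it. Over all optimal regions, TGATAA was found within 100 bp of the summit in 20.8% and CACGCG in 8.0%. None of the other motifs searched matched in the stretch.

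The receptor gene ptc (FBgn0003892, chr2R:8649649-8665223, plus strand) had the most regions in its window, many of them weak. That window held 6 optimal and 23 pooled summits, 8.99 pooled summits per 10 kb beside a median of 2.32 over protein-coding windows, and 1.03% of those windows were at least as dense. These counts include summits inside Acsl, beyond the 3' end of ptc. Close summits were counted apart even where they shared a replicate region, as those 660 and 865 bp upstream did in replicates 1 and 2. The promoter summit lay 1 bp upstream of the ptc TSS, at chr2R:8649648, with a pooled signal of 260.3 and rank 6941, close to the end of the optimal list, whose weakest region had a signal of 248. It ranked 5177 in replicate 1, 8941 in replicate 2 and 8319 in replicate 3, a mean of 7479 ± 2018 (SD, n = 3), so it was among the strongest 7366 of replicate 1 only. Its place was the same in all of them: the replicate summits lay 1, 0 and 1 bp from the pooled summit. A second weak region lay in an intron, 4767 bp downstream of the TSS, at rank 7150, and it ranked 4961, 6445 and 11004 in the replicates. The intron held a further run of regions below the optimal list. Those at 2077, 2928 and 6017 bp from the TSS ranked 9706, 8199 and 8353 in the pooled list and had a region in every replicate. Upstream of the gene, 5 pooled summits between 660 and 3563 bp from the TSS ranked between 20909 and 26150.

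The strongest regions in the window of ptc lay beyond its 3' end, inside Acsl, which encodes a long-chain acyl-CoA synthetase. The strongest, at chr2R:8669197, lay in an intron of Acsl, 1526 bp from an Acsl TSS and 19548 bp from that of ptc, with a pooled signal of 1348.1 and rank 636. It ranked 1090, 526 and 558 in replicates 1, 2 and 3, a mean of 725 ± 317 (SD, n = 3). A neighbour 1325 bp from an Acsl TSS, at chr2R:8669398, ranked 1297 in the pooled list and 1880, 1028 and 1148 in the replicates. Another Acsl intron summit at chr2R:8667754 ranked 2135, with replicate ranks of 1539, 2744 and 2362 and a CACGTG centred at -54.5 bp from it. The last, 164 bp from an Acsl TSS, ranked 6769 and had no region in replicate 2. In replicate 1 its region, at rank 6014, had its summit 171 bp away and also held a neighbouring pooled summit at rank 7480. In replicate 3 the summit lay 33 bp away. All 4 optimal summits in Acsl were nearest to an Acsl TSS, and in the pooled list all 4 ranked above the promoter and intron regions of ptc. The summits at ranks 636 and 1297 lie within 400 bp of each other, and their replicate regions are separate. Around the ptc promoter summit, GAGAG, the repeat that GAGA factor binds, had 7 matches, overlapping ones counted, and the nearest was centred 1 bp away. GAGAG was within 100 bp of 27.7% of all optimal summits. CACGTG was absent there, and its variant CACGAG was centred at -18.5 bp.

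**Figure D2:**
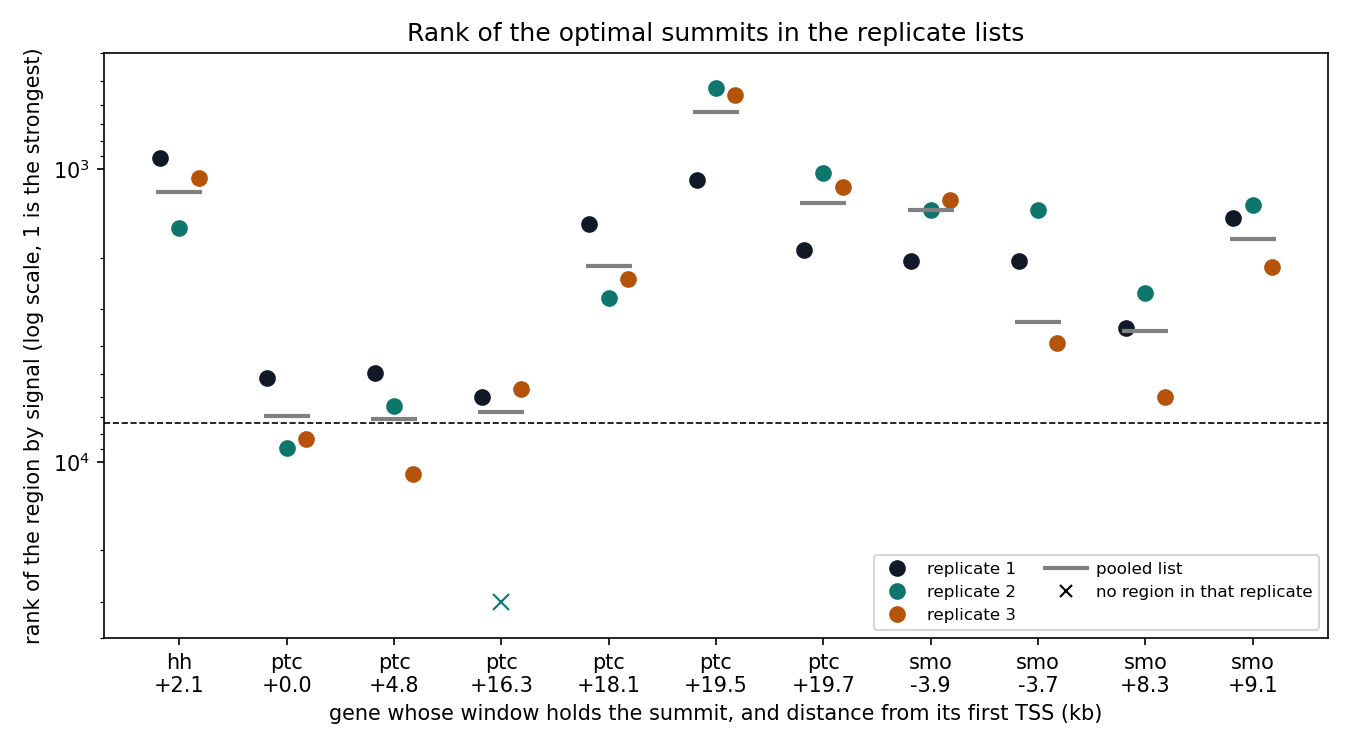
Ranks of the 11 optimal summits in the 3 replicate lists (points) and in the pooled list (grey bars), on a log axis with the strongest at the top, ordered by gene and by distance from the gene's first TSS in kb. The hh summit and the last 3 of ptc lie above the dashed line at rank 7366 in every replicate, as do all 4 of smo, while the promoter and intron summits of ptc fall on both sides of it and the summit 16328 bp from the TSS lacks a region in replicate 2 (cross).

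The signal transducer gene smo (FBgn0003444, chr2L:277582-282167, plus strand) had strong regions on both sides and none of its own. Of the 4 optimal summits in its window, those upstream were at the promoters of mbm and CG11555, a pair of neighbouring genes. The mbm summit at chr2L:273720 lay 5 bp from the mbm TSS and 3862 bp from that of smo, with a pooled signal of 848.3 and rank 1371, and it ranked 2048, 1372 and 1276 in the replicates, a mean of 1565 ± 421 (SD, n = 3). The CG11555 summit at chr2L:273921 lay in the 5' UTR of that gene and ranked 3310. In replicates 1 and 2 the best-ranked region over it was that of the mbm summit, and in replicate 3 it was another, at rank 3923. Only the best-ranked region was read, so a weaker region at CG11555 in replicates 1 and 2 would not show. Each of these replicates had 4 regions among its strongest 7366 in the window, more than the distinct ranks given here. The mbm and CG11555 summits lie within 400 bp of each other. With the weaker summit of each such pair left out, 9 of the 11 optimal summits remained. Downstream of smo, both summits were in an intron of CG3625. That at chr2L:286640 lay 109 bp from a CG3625 TSS and ranked 1727, with replicate ranks of 1461, 1324 and 2149. That at chr2L:285852 lay 126 bp from a TSS of the same gene and ranked 3572, with replicate ranks of 3475, 2634 and 5973. All 4 were among the strongest 7366 of each replicate. Inside smo, the pooled list held a single summit, 771 bp from the smo TSS and 119 bp from that of CG17078, at rank 28056, and no replicate had a region there.

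The mbm and the stronger CG3625 stretches are shown because they differ in the letters they hold. Both are plus strands of the RefSeq dm6 assembly, chr2L:273620-273820 and chr2L:286540-286740, 201 bases centred on the summit. Capitals mark CACGTG at mbm and TGATAA, on either strand, at CG3625.

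mbm promoter: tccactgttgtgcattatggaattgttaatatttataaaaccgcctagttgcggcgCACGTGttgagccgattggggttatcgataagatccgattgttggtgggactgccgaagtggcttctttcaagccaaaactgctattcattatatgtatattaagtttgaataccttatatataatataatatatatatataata

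CG3625 intron: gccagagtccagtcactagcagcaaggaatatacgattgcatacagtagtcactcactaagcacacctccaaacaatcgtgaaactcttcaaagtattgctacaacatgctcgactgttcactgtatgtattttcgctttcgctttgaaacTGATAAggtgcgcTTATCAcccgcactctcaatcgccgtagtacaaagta

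The CACGTG at mbm was centred at -41.5 bp from the summit. With the Acsl summit above, it made 2 of the 11 optimal summits with CACGTG within 100 bp, beside 13.5% of all optimal regions, and neither was nearest to a member's TSS. TGATAA was found at 4 of the 11, beside 20.8% of all optimal regions, with 1 at hh, 1 at the ptc intron summit, 1 in Acsl and 1 at CG3625. Of the 11 summits, 8 were among the strongest 7366 regions of all 3 replicates, beside 71.9% of all optimal regions. The 3 that were not were all in the window of ptc.

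The effector gene ci (FBgn0004859, chr4:47710-57041, minus strand) had no region in the pooled list, and replicate 3 alone had a region in the window, at -2143 bp from the first TSS and rank 10683. The nearest optimal summit lay 12640 bp from the ci TSS, at the promoter of pan, which encodes the TCF factor of Wingless signalling, and ranked 4977. The small chromosome 4 held few regions of any kind, with 6 in the optimal list and 15 in the pooled list, and 26, 17 and 18 in replicates 1, 2 and 3. Of its 80 protein-coding genes, 10 had an optimal summit in the window, and the same number had a pooled one. Chromosome 4 took 0.0815% of optimal regions and 0.574% of protein-coding genes.

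The paired homeobox genes en and inv had weak regions only. The window of en (FBgn0000577, chr2R:11524006-11528210, minus strand) held 1 pooled summit, 7255 bp from an en TSS on the side of inv, at rank 18862, and no replicate had a region there. Replicates 1 and 2 had 2 regions each in the window, the strongest at ranks 17798 and 24767, and replicate 3 had 0. The strongest region of replicate 2, at -104 bp from the first en TSS, was also found in replicate 1, at rank 20094. The window of inv (FBgn0001269, chr2R:11474465-11509695, plus strand) held 5 pooled summits, at ranks from 14936 to 23246. The strongest, in the 3' UTR of inv, ranked 17155, 14377 and 17374 in replicates 1, 2 and 3, and another in an intron, 3285 bp from an inv TSS, ranked 19143, 23686 and 21815. The other 3 lacked a region in at least 1 replicate. Replicate 1 had a region at -4794 bp from the first inv TSS, at rank 6857, but neither the pooled list nor another replicate had one there. Of the 6 pooled summits of en and inv, 0 had CACGTG, beside 7.42% of all pooled regions, and 0 had GAGAG, beside 25.3%. GCCAT, the core of the site of the Polycomb-group protein Pho, was found at 2 of the 6, beside 32.6%. The homeodomain letters TAATTA were also found at 2, beside 13.1%.

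The low counts went beyond the windows of en and inv. Both lie alone between E(Pc), Enhancer of Polycomb, and tou, and the 112215 bp between these neighbours, a stretch chosen after the values of en and inv were seen, held 0 optimal and 9 pooled summits, or 0.802 pooled summits per 10 kb beside 2.24 over all arms. Of tiles of the same length along the arms that held a pooled summit, 6.24% had no optimal summit. The optimal summit nearest to en lay 65449 bp from its TSS, nearest to tou, at rank 1279, and that nearest to inv lay 23686 bp away, nearest to E(Pc), at rank 6002.

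**Figure D3:**
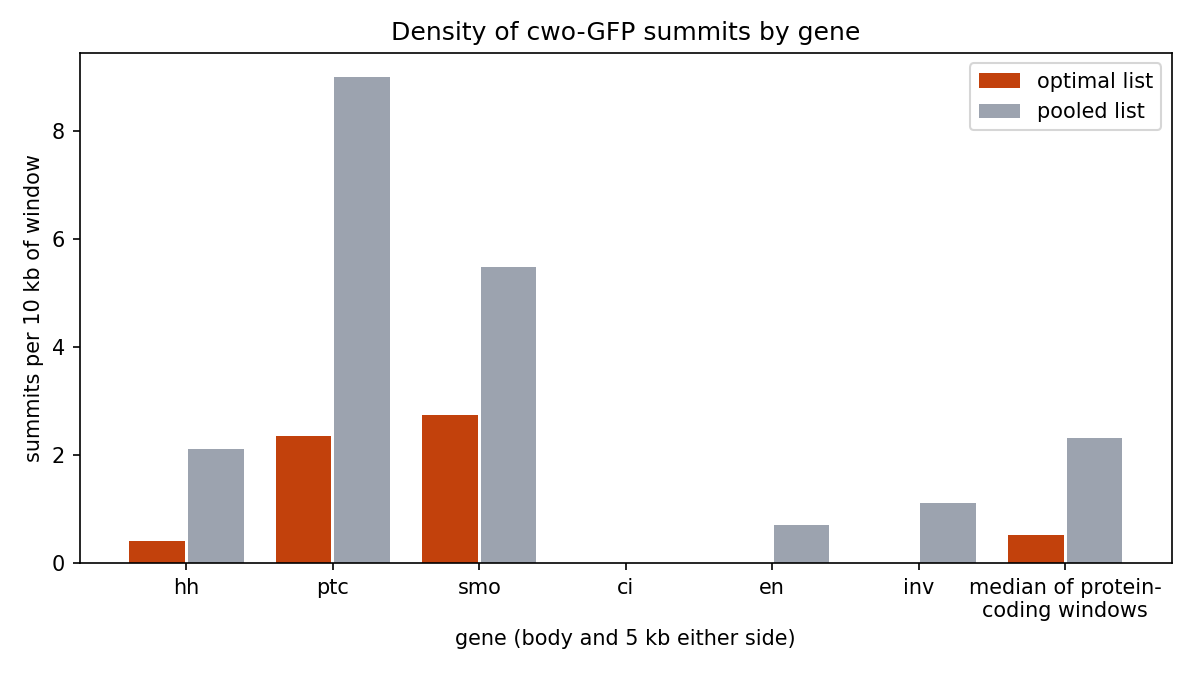
Summits per 10 kb of window (y axis) for each gene and, at the right, the median over all protein-coding windows, for the optimal list (orange) and the pooled list (grey). Both ptc and smo exceed the median in both lists, with 2.35 and 2.74 optimal summits per 10 kb, hh lies near it with 0.421, and ci, en and inv have an optimal density of 0.

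Per length, optimal summits numbered 0.771 per 10 kb over the summed length of the 6 windows, beside 0.745 for all protein-coding genes. Taken window by window, the density over protein-coding genes had a median of 0.526 and a mean of 0.792. The spread among the 6 was wide, with 2.74 at smo, 2.35 at ptc and 0.421 at hh, and 0 at ci, en and inv. Longer windows held more summits across all protein-coding genes (Spearman correlation 0.287 over 13945 windows, which share the same 3 libraries and partly overlap), yet the longest window here, 45231 bp at inv, held 0, and the 14586 bp window of smo held 4.

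Consensus sites for Ci itself, TGGGTGGTC on either strand, were counted in the same windows. The windows of ptc and inv held 4 and 6 such sites, or 1.56 and 1.33 per 10 kb, beside 0.09 per 10 kb over all arms. At ptc, 3 of the 4 were upstream, centred at -754, -697 and -631 bp from the TSS. The nearest optimal summit, that of the promoter, lay 630 bp from the closest of them, and a weak pooled summit at rank 26150 lay 29 bp from it. All 4 sites at ptc lay between 29 and 94 bp from a pooled summit. The 3 upstream ones were nearest to that at rank 26150, and the other to 1 at rank 28763. For the summit at rank 26150, those of replicates 1 and 2 lay 210 and 205 bp away, and replicate 3 had no region. For that at rank 28763, those of replicates 1 and 3 lay 69 and 203 bp away, and replicate 2 had no region. At inv, which has no optimal summit, the sites nearest to a pooled summit lay 290 and 342 bp from it. The window of hh held 1 site, 369 bp from its optimal summit, that of smo 1, and those of ci and en 0. Within 100 bp, 0 of the 11 optimal summits had a site, beside 0.109% of all optimal regions, a share too low for 11 summits to be read against. Of the 31 other pooled summits in the windows, 2 had one, the same 2 weak summits at ptc, beside 0.11% of all other pooled regions. These are matches of letters and not sites shown to be used.

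The genes whose strongest window region ranked most like that of each member, by the distance of log10 ranks over the 3 replicates, were Ns1 and N for hh, at 0.0394 and 0.0454. For ptc they were Atpalpha and trh, at 0.0786 and 0.087, and for smo CG17470 and Ugt36E1, at 0.0142 and 0.0283. For ptc and smo the ranks matched were those of the Acsl and mbm regions.

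Of 46 other genes of the pathway, drawn up by role, 26 had an optimal summit in the window (56.5%) and 12 had 1 at a promoter (26.1%), close to the 54.3% and 25.3% of all protein-coding genes. Their windows were longer, with a median of 18215.5 bp against 12166 bp. In 7 of the 26 the strongest summit was nearest to a TSS of the listed gene, and in the others to that of another gene. The share over all protein-coding genes was not counted, so the 7 cannot be read as a trait of the pathway. Among the 8 genes that make, release or spread the ligand, 6 had an optimal summit, and rasp, which palmitoylates Hedgehog, and disp, which releases it, did not. The strongest were in the windows of sotv, a heparan sulfate polymerase gene, at rank 1119, and of the glypican genes dlp and dally, at ranks 1553 and 1879. The sotv window summit lay in the 5' UTR of lbk, and the strongest nearest to a TSS of sotv ranked 1967. Those of dlp and dally were intronic and nearest to long non-coding RNAs, and the strongest nearest to their own TSSs ranked 3954 and 2745. Those 3 genes also had a promoter region. Of the co-receptors, ihog had 1 region, at rank 2035 and nearest to Gas41 and SA1, and boi had 0.

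Of the lists by role, that of genes acting inside the receiving cell had the best median rank. Of its 12 genes, 9 had an optimal summit (75.0%, beside 54.3% of all protein-coding genes) and 6 had a promoter region, beside 25.3% of all. By nearest TSS within 5000 bp, cwo regions belonged to 3 of the 12 (25.0%), beside 23.6% of all. In only 2 of the 9 was the strongest summit, whose rank enters the median, nearest to a TSS of the listed gene. Their median window was 22608.5 bp, beside 12166 bp for all protein-coding genes. The median strongest rank was 221, beside 2172 for all protein-coding genes that had a region. The strongest were Gprk2, a kinase gene, gish, a casein kinase gene, and Pka-C1, the catalytic subunit gene of protein kinase A, which phosphorylates Ci. In the window of Gprk2 the rank was 86, but the summit lay 82 bp from a TSS of PNPase. That of Pka-C1, rank 193, lay 1 bp from a TSS of hoip. At gish the summit lay in an intron, 173 bp from a TSS of gish, and ranked 121 in the optimal list and 152, 149 and 110 in the replicates. The 3 genes with 0 were cos, a kinesin-like scaffold gene, fu, a kinase gene, and Cul3, a ubiquitin ligase subunit gene.

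Of 7 target genes other than ptc, 3 had an optimal summit (42.9%, beside 54.3% of all protein-coding genes), and wg, rho, ara and caup had 0. Per length the targets held 0.866 optimal summits per 10 kb, beside 0.745 for all protein-coding genes, and 18 of these summits were in the window of rdx. The target rdx, whose product targets Ci for degradation with Cul3, had its 18 optimal summits in a window of 74997 bp, 15 of them nearest to an rdx TSS, the strongest of these at rank 425. The strongest summit of the window, rank 317, was nearest to Orc2. In dpp the strongest was intronic at rank 4827, and that in the window of kn, rank 5561, was nearest to an antisense RNA in BEAF-32. Of 19 segment polarity genes and regulators of en, 8 had an optimal summit (42.1%, beside the same 54.3%). The corepressor gene gro had a region 133 bp from its own TSS at rank 414, and those in the windows of exd and dsh, ranks 564 and 995, were nearest to CG8939 and CG1737. Among the 11 with 0 were the pair-rule genes eve, ftz, prd, odd, opa and run, picked out here with their values known. The others with 0 were wg, gsb, gsb-n, slp1 and arm. In the same list, slp2 had 1 optimal summit, at rank 1216 and 4334 bp from its own TSS. These counts carry no test, since the genes were listed with earlier results of these data known.

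**Figure D4:**
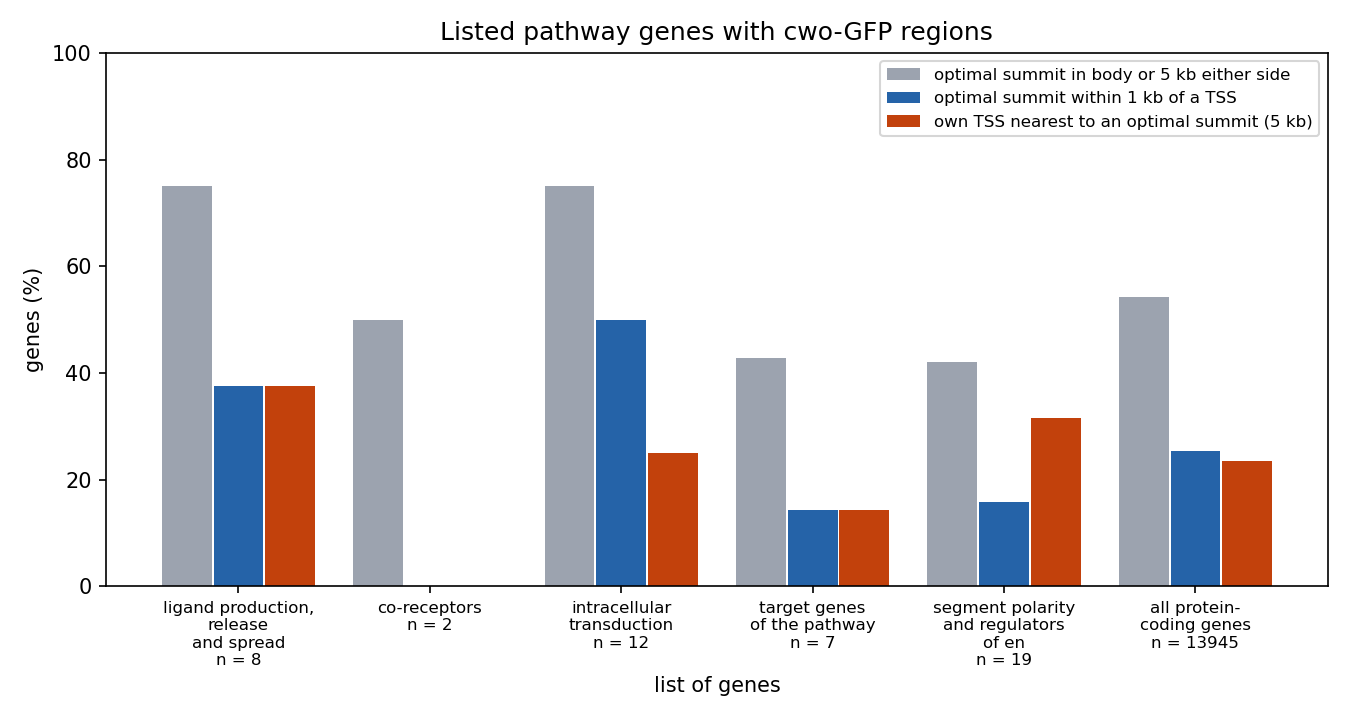
Share of genes (y axis, %) in each list of pathway genes, the 6 genes themselves left out, and at the right of all protein-coding genes, with an optimal summit in the window (grey), within 1 kb of a TSS (blue) or nearest to the gene's own TSS within 5 kb (orange). The share with a summit in the window runs from 42.1% to 75.0% in the lists, beside 54.3% for all protein-coding genes.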

How the data were processed

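ChIP-seq region lists of 3 biological replicates were used as deposited, on dm6. Per the text deposited with each library, the authors derived each replicate list from that replicate's alignment and a control alignment, the pooled list from the pooled alignments, and the optimal list from these 4 lists. The signal column is a score deposited by the authors, read as the narrowPeak layout has it. The summit is the start plus the tenth column, in bp, as deposited, and positions are given 1-based. No source used here names the peak caller, the aligner or the IDR threshold. Overlap between the optimal list and the replicates it came from is not independent evidence. The optimal list equals the 7366 strongest of the pooled list. Genes came from the Ensembl release 115 annotation and bases from RefSeq, both of this assembly, and 0 summits lay beyond an arm's end. The dm3 lists were not used here, since the annotation is dm6.

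Summits were assigned to a gene's body and 5000 bp either side, a promoter was within 1000 bp of a TSS, and motifs were sought on either strand, up to 100 bp from a summit. Besides those spelled out above, the E-box variant CACGTT was sought. CAGCTG was a further E-box. TAATTA stood for homeodomain proteins. A replicate held a summit when it lay inside one of its 7366 strongest regions, and where regions overlapped the best rank was taken. Python 3.11.15, numpy 2.4.6 and pandas 2.3.3 were used, and the functions were tested on planted summits and motifs. With 1 group no test was run. The named genes are the 6 members, the 3 genes of each list with the strongest region in the window, any that a count of 5 or fewer leaves over, the nearest genes of the members' summits and the 2 genes most alike in replicate ranks, which share no region with the member. Also named are slp2 and the segment polarity genes and regulators of en without an optimal summit. Members, lists and motifs were chosen with earlier results of these data known. Alternatives were other windows, distances and overlaps, the stronger 3683 optimal regions, the omission of the weaker of close summits, and the omission of each replicate, which kept the optimal regions that both others held.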

Additional observations from a re-analysis of the deposited data

How the results depend on the processing

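The 3 of 6 members with an optimal summit became 2 with the gene body alone, with 2000 bp either side or by nearest TSS within 5000 bp, when smo dropped out. The 11 optimal summits became 2 with the gene body alone (0.242 per 10 kb), 4 with 2000 bp (0.375 per 10 kb) and 2 by nearest TSS. Those held by all replicates became 1 with the gene body alone and 1 with 2000 bp, and those with CACGTG became 0 in both, 4 with 10000 bp, and 1 with CACGTG within 50 bp. Listed genes with an optimal summit numbered 14 with the gene body alone. With smaller windows the summits per 10 kb fell as well as the counts, from 0.771, and only 2 of the 11 summits lay in a member's gene body. With 10000 bp the density was 0.74 per 10 kb. The changes by nearest TSS follow from another rule of assignment, and that within 50 bp from a shorter distance searched. The promoter region of ptc was lost, leaving 0 genes, in the stronger 3683 regions, and with any replicate left out (lowest 0, highest 0), since replicate 1 alone held it. Of 64 alternative values, 48 stayed within 1.5 times, or for a mean rank within 1 SD. No paired analysis was possible because the labels give a single group. Depth is unknown, so an absent region, as at ci, en and inv, means below these lists and not absence of binding.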
